A study of Mus musculus with 6 samples.

Results

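Tspan14 and its relatives Tspan5, Tspan10, Tspan15, Tspan17 and Tspan33, the C8 tetraspanins, were examined together with Adam10, the protease they escort. The 7 genes were found by symbol among the 22180 genes of a mouse array, and each had 1 probe set that carried its symbol alone. The arrays measured RNA of long-term haematopoietic stem cells (LT-HSC), sorted from bone marrow of C57/BL6 mice 4 months after a bone marrow transplant. NPMc+ LT-HSC, from pools of animals expressing a mutant nucleophosmin that is found in the cytoplasm, gave 3 arrays, and control LT-HSC, from pools of control animals, gave 3 arrays. The replicate numbers 1 to 3 tie an NPMc+ array to a control array, and differences were taken within these 3 pairs as NPMc+ minus control, in log2 units. The labels do not give the promoter or construct that drives the mutant, the markers of the sort, the age of the mice or the number of animals in a pool. Tspan14 was chosen by its difference between NPMc+ and control in an earlier analysis of these values, and its relatives and Adam10 were added for their family and function. The differences of the 7 genes are therefore a description, with no test.

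Tetraspanins are small proteins that cross the membrane several times and gather partner proteins around them. The C8 subgroup, named for the cysteines of its large extracellular loop, binds Adam10 in the endoplasmic reticulum, helps it to leave and mature, and steers it at the cell surface. Adam10 is a metalloprotease that cuts the outer part off membrane proteins, among them Notch receptors, cadherins and the low-affinity IgE receptor, and after its cut the gamma-secretase complex can release the inner part of Notch. The C8 member in the complex is known to bear on which substrates are cut. In blood, Adam10 is known for cutting Notch in developing lymphocytes and receptors on platelets.

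The deposited values carry a feature that bears on every number below. In 100% of probe sets the mean of the NPMc+ and the control array was the same in pairs 1, 2 and 3 within 0.001 log2 units. The spread among the NPMc+ arrays is thus the mirror image of that among the control arrays, and the groups do not overlap exactly when all 3 differences have 1 sign. The labelled cell type was checked against 12 LT-HSC markers, whose levels lay between the 47.0th and the 97.8th percentile of all gene means, with a median of 77.7. Kit, the receptor of stem cell factor, averaged 9.37 log2 units in NPMc+ and 8.94 in control, at the 96.9th percentile. Procr, Slamf1, Tek and Fgd5 lay at the 65.5th, 60.8th, 48.8th and 47.0th. The 12 neutrophil and monocyte markers lay between the 68.3rd and the 99.9th percentile, with a median of 98.3, although such levels give no shares of cell types. Xist, which silences an X chromosome in females, differed by -5.44, -5.39 and 0.48 log2 units in pairs 1, 2 and 3, so this RNA was not balanced within pairs 1 and 2. Of Y-linked genes, Eif2s3y differed by 5.49, 0.36 and -0.79, Kdm5d by 3.48, 1.29 and -0.67, and Uty by 4.68, 0.93 and 0.35 in the same pairs. The 7 members lie on autosomes, and whether their values depend on this imbalance was not tested.

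Tspan14 (probe set 17305211), which helps Adam10 to mature and favours its action on Notch, was the member chosen by its difference. That it stood apart from the others follows from this choice. Its level was 6.95, 6.89 and 7.01 log2 units in the NPMc+ samples, replicates 1 to 3, against 5.82, 5.88 and 5.76 in the control samples. Every NPMc+ value lay 1.01 log2 units or more above every control value. The difference was 1.13 in pair 1, 1.01 in pair 2 and 1.26 in pair 3, with a mean of 1.13 ± 0.12 (SD of 3 pairs), which is 2.19-fold. Its difference, by which it was chosen, lay at the 99.6th percentile of the 16635 genes tested, and its spread over pairs at the 10.6th. Leaving out any 1 pair gave a mean between 1.07 and 1.19.

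Tspan5 (probe set 17403150), which also promotes the action of Adam10 on Notch, had 6.01, 5.97 and 6.0 log2 units in the NPMc+ samples, against 5.74, 5.77 and 5.75 in the control samples. The groups were close and did not overlap. Its differences were 0.27, 0.20 and 0.25 in pairs 1 to 3, with a mean of 0.24 ± 0.04 (SD), or 1.18-fold. Only 1.2% of the genes tested had a smaller spread over the pairs. After a quantile normalization of the arrays the mean difference was 0.17.

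Tspan17 (probe set 17287536), the closest relative of Tspan5, had 5.15, 5.26 and 5.27 log2 units in the NPMc+ samples, against 5.03, 4.92 and 4.92 in the control samples. All NPMc+ values were above all control values. The difference was smallest in pair 1, at 0.13, and 0.35 in each of the other pairs, with a mean of 0.27 ± 0.13 (SD), or 1.21-fold. Leaving out a pair gave 0.24 to 0.35 for Tspan17 and 0.22 to 0.26 for Tspan5.

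Adam10 itself (probe set 17519088) had 8.98, 9.09 and 9.08 log2 units in the NPMc+ samples, against 8.92, 8.82 and 8.82 in the control samples. The groups did not overlap, but the replicate 1 samples nearly met. The differences of 0.06, 0.27 and 0.26 had a mean of 0.20 ± 0.12 (SD), or 1.15-fold, and lay between 0.16 and 0.27 when a pair was left out. This difference lay at the 72.4th percentile of the genes tested, and Tspan5 and Tspan17 at the 76.5th and 79.7th. Adam10 and Tspan17 shared the order of the pairs, with pair 1 lowest, while Tspan5 was highest in pair 1.

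**Figure D1:**
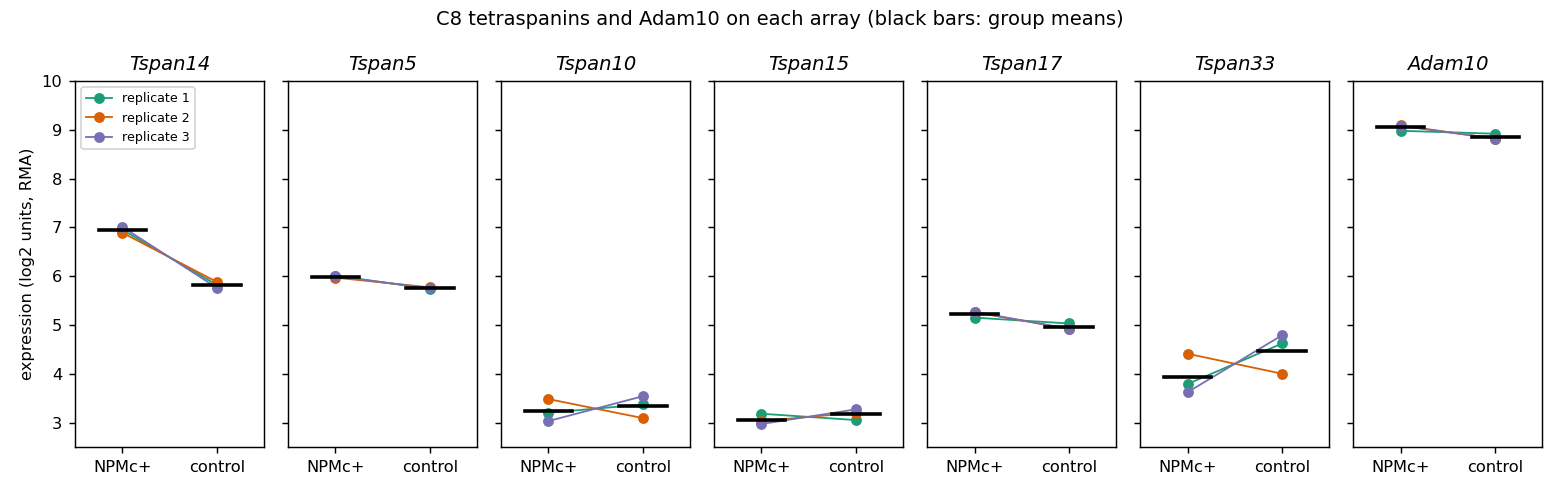
Expression of each member in log2 units (vertical axis) in the NPMc+ and control samples (horizontal axis). Points are arrays, lines join same-numbered arrays and black bars are group means. Tspan14 runs from 6.89 to 7.01 in NPMc+ and from 5.76 to 5.88 in control, and the lines of Tspan33 cross; heights of unlike genes are not comparable because each rests on its own probes.

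The other 3 C8 tetraspanins had groups that overlapped. Tspan15 (probe set 17241308), known for directing Adam10 to N-cadherin, had 3.18, 3.03 and 2.97 log2 units in the NPMc+ samples, against 3.05, 3.20 and 3.27 in the control samples. Its differences were 0.14, -0.17 and -0.30, with a mean of -0.11 ± 0.22 (SD). Its sign therefore differed between pair 1 and the other pairs.

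Tspan10 (probe set 17259324), known from pigment cells of the eye, had 3.20, 3.48 and 3.03 log2 units in the NPMc+ samples, against 3.37, 3.09 and 3.54 in the control samples. Its differences of -0.18, 0.39 and -0.52 had a mean of -0.10 ± 0.46 (SD), which became 0.10 without pair 3. Tspan10 and Tspan15 were dim, at the 32.5th and 27.9th percentile of all gene means, just above the 25th percentile below which genes were left out. No background measurement was used here, so whether these probe sets read a transcript was not settled.

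Tspan33 (probe set 17456710), a tetraspanin of red cell precursors and activated B cells, had the widest spread of the 7. Its level was 3.79, 4.41 and 3.62 log2 units in the NPMc+ samples, against 4.62, 4.00 and 4.79 in the control samples. The NPMc+ sample was lower in pairs 1 and 3, by -0.84 and -1.17, and higher in pair 2, by 0.40. The mean was -0.53 ± 0.83 (SD), at the 3.4th percentile of the genes tested, with a spread at the 93.9th. Without pair 2 the mean was -1.0, and without pair 3 it was -0.22.

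**Figure D2:**
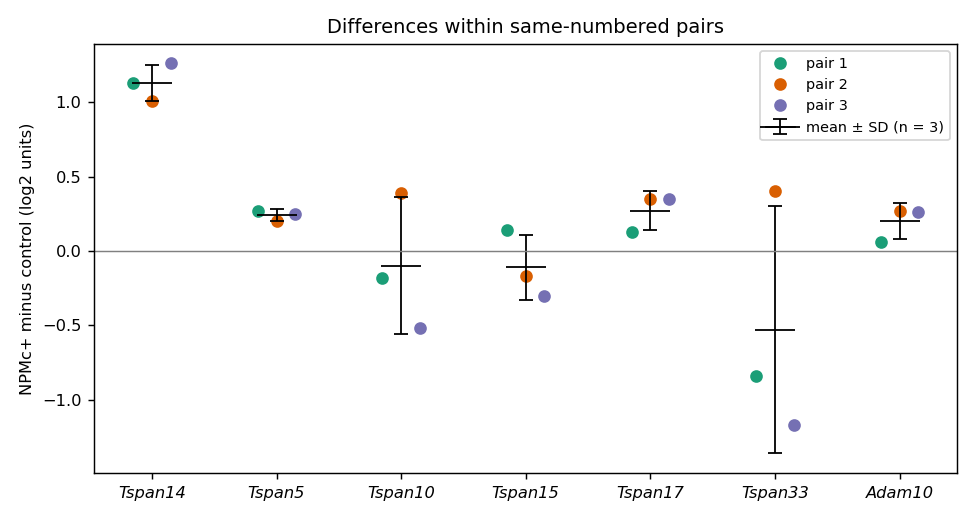
NPMc+ minus control in log2 units (vertical axis) for each member (horizontal axis). Coloured points are the 3 pairs and black marks the mean with its SD. Tspan14 lies between 1.01 and 1.26, Tspan5, Tspan17 and Adam10 between 0.06 and 0.35, and Tspan10, Tspan15 and Tspan33 on both sides of 0.

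All 7 members passed the filter on dim genes. Of these, 4 were higher in NPMc+ in 3 of 3 pairs, namely Tspan14, Tspan5, Tspan17 and Adam10, and 0 were lower in 3 of 3 pairs. Over all genes tested, 17.4% were higher in every pair and 12.8% lower. In limma, 1 of the 7, Tspan14, had an unadjusted p under 0.05, where 8.97% of the 16635 genes had one. None of the 7 passed an adjusted p under 0.05, nor did any other gene (0%; 1492 at an unadjusted p under 0.05). Because members were chosen with this contrast known, nothing is read from these counts. The median difference of the members was 0.20 log2 units, against 0.03 over all genes tested.

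**Figure D3:**
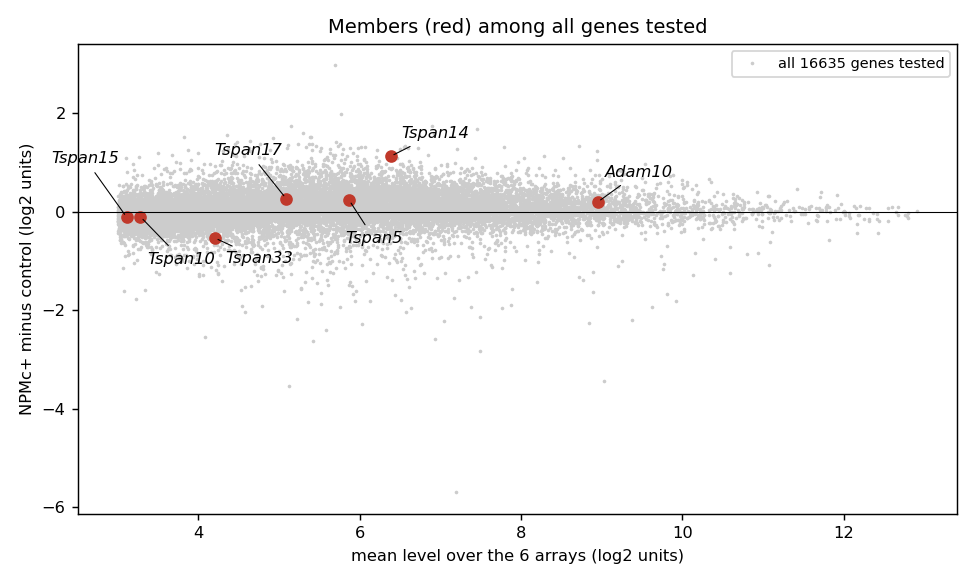
Mean level over the 6 arrays (horizontal axis, log2 units) against NPMc+ minus control (vertical axis, log2 units) for the 16635 genes tested (grey) and the 7 members (red). Tspan14, at 1.13, sits at the upper edge of the grey cloud, while Tspan5, Tspan17 and Adam10, at 0.24, 0.27 and 0.20, lie within it.

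The promoters of the 4 genes that were higher in every pair are shown. At the start shown, each held at least 1 GC box, a short sequence given below. So did Tspan33 and 32.7% of all promoter windows, so the box does not set the 4 genes apart. The choice of members did not use it, and any link to the differences was not tested. The RefSeq table of GRCm38.p6 held all 7 members, with 2 transcript starts for Tspan14 and 1 for each other gene. The 250 bases before the start are given 5′ to 3′ on the gene's strand, with GC boxes (GGGCGG on either strand, the letters that Sp1-type factors bind) in capitals. Tspan14 is shown at its outer start, chr14:40966897-40967146 on the minus strand, Tspan5 at chr3:138741958-138742207, Tspan17 at chr13:54789155-54789404 and Adam10 at chr9:70678732-70678981, all 3 on the plus strand.
Tspan14: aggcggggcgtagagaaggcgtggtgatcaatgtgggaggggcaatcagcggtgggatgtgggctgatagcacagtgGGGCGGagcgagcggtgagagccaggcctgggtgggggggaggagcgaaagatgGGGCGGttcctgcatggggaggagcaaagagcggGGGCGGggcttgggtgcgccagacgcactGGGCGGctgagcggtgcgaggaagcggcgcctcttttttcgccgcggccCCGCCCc
Tspan5: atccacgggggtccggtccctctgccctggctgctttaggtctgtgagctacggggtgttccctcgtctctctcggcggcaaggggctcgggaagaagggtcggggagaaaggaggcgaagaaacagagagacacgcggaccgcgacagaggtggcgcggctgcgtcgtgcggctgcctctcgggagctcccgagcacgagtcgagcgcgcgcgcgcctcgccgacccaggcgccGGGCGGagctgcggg
Tspan17: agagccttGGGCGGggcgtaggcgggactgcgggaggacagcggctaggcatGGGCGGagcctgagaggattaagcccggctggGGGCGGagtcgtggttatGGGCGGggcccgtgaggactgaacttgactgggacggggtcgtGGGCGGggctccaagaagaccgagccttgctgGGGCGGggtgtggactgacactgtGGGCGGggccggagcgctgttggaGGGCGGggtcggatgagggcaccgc
Adam10: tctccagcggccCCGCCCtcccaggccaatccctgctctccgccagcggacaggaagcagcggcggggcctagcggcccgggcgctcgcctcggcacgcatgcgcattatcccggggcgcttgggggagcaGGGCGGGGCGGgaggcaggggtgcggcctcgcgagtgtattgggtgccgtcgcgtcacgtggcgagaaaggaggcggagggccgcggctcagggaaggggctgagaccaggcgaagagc

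These windows held 5 GC boxes in Tspan14, 1 in Tspan5, 8 in Tspan17 and 3 in Adam10, of which 2 overlap. Of the 32851 windows of the same length in the table, 32.7% held at least 1 and 8.47% at least 3. The 4 windows were rich in G and C, with 69.6%, 70.8%, 70.8% and 74.0% in that order, against a median of 52.4% over all windows. Tspan33 held 2 GC boxes at 62.4% GC, and Tspan15 held 0 at 63.2%. The inner start of Tspan14 and the window of Tspan10 held 0 and had 47.6% and 48.8% GC. The array does not tell which Tspan14 start was used.

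Other motifs were scarce in all 8 windows. Adam10 held CACGTG, the E-box letters that Myc-type factors bind, 1 time, at position -64 from the start, where 6.02% of all windows held it. It also held GATAA, the letters of GATA factors, 1 time, on the opposite strand at position -144, where 22.6% held it. TGGGAA, the core that the Notch factor Rbpj binds, TGACAG, the letters of Meis factors, and TATAAA were in none of the 8 windows, where 21.6%, 15.9% and 12.4% of all windows held them. Both strands were searched, overlapping matches were counted, the CACGTG and GATAA matches of Adam10 overlap no GC box, and a match is only a match of letters.

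Over the 3 pairs, the genes whose differences lay nearest to those of Tspan14 were Dapp1, Itga6, Rbpms, Nrgn and Myct1. Likeness was the Euclidean distance between the 3 differences of 2 genes, over 14486 named candidates. Dapp1, an adaptor of phosphoinositide signalling, had differences of 1.09, 0.95 and 1.13 at a distance of 0.143. Itga6, an integrin chain that binds laminin, had 0.97, 0.92 and 1.37 at a distance of 0.215. The other 3 had distances of 0.297 to 0.352. For Adam10 the nearest were Ifnar1, Farsb, C1qtnf6, Perm1 and Nucks1, at distances of 0.031 to 0.048, closer because small differences are the common case. Ifnar1, a chain of the type I interferon receptor, had 0.04, 0.26 and 0.28.

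Markers of other cell types differed between the groups as well. The RNA of bulk samples does not tell fewer cells of a type from less RNA per cell. In limma, 6 of 8 erythroid markers were lower in NPMc+ at an unadjusted p under 0.05, where 3.02% of all genes were, and 0 higher. Their summed linear level was 482 to 580 in NPMc+ and 831 to 1001 in control. The erythroid medians were -1.04, -0.37 and -0.75 log2 units in pairs 1 to 3. Rhd, of the Rh blood group, differed by -1.43, -0.28 and -1.94, and Ermap, an erythroblast membrane protein, by -1.13, -0.76 and -2.14. In 3 of the 8 markers, Rhd, Ermap and Klf1, the order of the pairs was that of Tspan33, with pair 3 lowest and pair 2 highest. The other 5 were lowest in pair 1, as was the list median, and 6 of the 8 were highest in pair 2. B cell markers were lower for 7 of 9, with summed levels of 257 to 292 in NPMc+ and 593 to 645 in control. Their pair medians were -1.32, -1.21 and -1.84, which is the order of the pairs in Tspan33. Of the single B cell markers, Vpreb3 and Pou2af1 had this order. Ms4a1, Cd79a, Cd79b, Ebf1, Pax5, Blnk and Cd22 had other orders, so the median does not stand for most of the list. What part either cell type has in the Tspan33 values was not tested.

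Beside Tspan14, 7 of 12 LT-HSC markers were higher in NPMc+ at an unadjusted p under 0.05 in limma, where 5.95% of all genes were, and 0 lower. Their summed level was 2826 to 2982 in NPMc+ and 1661 to 1791 in control. Megakaryocyte and platelet markers, of cells in which Tspan14 and Adam10 are known to act, were higher for 7 of 10 and lower for 0. Their summed levels were 954 to 1296 in NPMc+ and 479 to 651 in control. Neutrophil and monocyte markers were lower for 6 of 12 (sums of 12572 to 17614 in NPMc+ and 17945 to 26433 in control). T and NK cell markers were lower for 3 of 10 (sums of 176 to 209 in NPMc+ and 333 to 429 in control). Of all genes tested, 3.02% were lower at that threshold. None of the marker values was 0, the lowest being 2.69 log2 units, and their part in the Tspan14 difference was not tested.

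**Figure D4:**
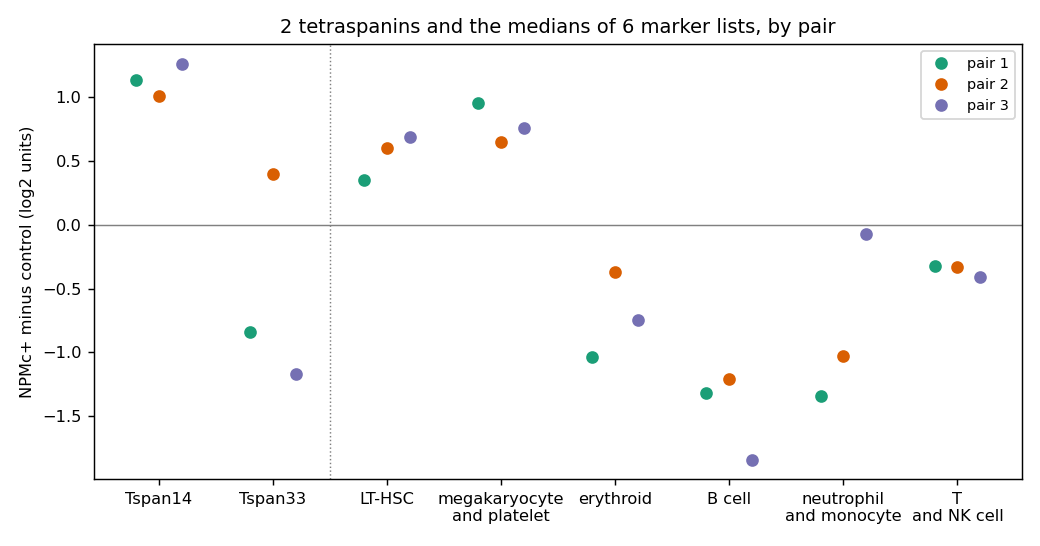
NPMc+ minus control in log2 units (vertical axis) of Tspan14, Tspan33 and the medians of 6 marker lists (horizontal axis), with a coloured point for each pair. Tspan33, the erythroid median, at -0.37, and the B cell median, at -1.21, are highest in pair 2. Tspan33 and the B cell median are lowest in pair 3, the erythroid median in pair 1. Most single markers of both lists have another order of the pairs than Tspan33. The LT-HSC and megakaryocyte medians lie between 0.35 and 0.95 beside Tspan14.

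The genes with which these proteins work were taken from 6 lists by role. Of 111 genes listed 99 were tested in limma. At an unadjusted p under 0.05, 10 were higher in NPMc+ and 7 lower, or 17.2% against 8.97% of all genes tested. By direction, 5.95% of all genes tested were higher and 3.02% lower. In the lists 0 passed the adjusted threshold, with a smallest adjusted p of 0.296 in limma. The lists were chosen with earlier results of these data known. Nothing is therefore read from these shares or from the counts per list below. The medians of the lists lay between -0.08 and 0.14 log2 units, against 0.03 over all genes. Differences below are given ± SE from limma.

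Of 21 tested tetraspanins outside the C8 subgroup, 3 were higher and 1 lower (median 0.05 log2 units). Tspan32, a tetraspanin of blood cells, was higher by 0.76 ± 0.26 log2 units (7.89 in NPMc+, 7.14 in control), Tspan4 by 0.70 ± 0.29 and Tspan3 by 0.59 ± 0.18. Tspan8 was lower, at 4.26 in NPMc+ and 5.87 in control (-1.61 ± 0.42). The widely expressed Cd9 and Cd81 differed by 0.05 ± 0.23 and 0.69 ± 0.37, and Cd151, a partner of laminin-binding integrins, by 0.99 ± 0.42, with differences of 0.07, 2.36 and 0.56 in pairs 1 to 3; these 3 did not pass. None of the 21 had a higher mean difference than Cd151, at 1.99-fold. Tspan14, at 2.19-fold, was chosen by its difference, so nothing is read from its place above them. Without pair 2, 1 of the list passed, which was Tspan8, and Tspan4 and Tspan32 differed by 0.34 and 0.49. Tspan8 differed by -0.96 without pair 3.

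Of 21 other ADAM proteases and regulators, 1 was higher and 2 lower (median -0.06 log2 units). Timp3, an inhibitor of Adam10 and Adam17, was higher by 1.28 ± 0.40, at 5.02 in NPMc+ and 3.73 in control. Its pair differences of 1.30, 0.13 and 2.42 were uneven, and it no longer passed without pair 1 or without pair 3, where the difference was 0.72. Adam19 was lower, with a difference of -1.56 ± 0.29, at 4.49 in NPMc+ and 6.05 in control. Adam8, a protease of neutrophils and other leukocytes, was lower (-1.01 ± 0.38), with -1.62 and -1.61 in pairs 1 and 2 and 0.21 in pair 3; it passed without pair 3, at -1.61, but not without pair 1 or pair 2. The neutrophil and monocyte medians were -1.34, -1.03 and -0.07 in the same pairs, and what part these cells have in the Adam8 values was not tested. Adam17, the sheddase most like Adam10, differed by 0.24 ± 0.18, close to the 0.20 of Adam10, and did not pass.

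Of 8 Notch receptors and ligands, 1 was higher and 0 lower. Notch2, the receptor of marginal zone B cells that is also found on stem cells, was higher by 0.52 ± 0.20 (7.46 in NPMc+, 6.94 in control), whereas Notch1 differed by -0.22 ± 0.19 and did not pass. Notch2 was no longer past the threshold after quantile normalization, with an intensity trend, with the stricter filter or without pair 2 or 3, and its difference without pair 2 was 0.33. Of 6 gamma-secretase genes, Ncstn, the subunit that receives substrates, was higher by 0.74 ± 0.28, with 0.00, 0.87 and 1.34 in the 3 pairs, and 0 were lower. It did not pass without pair 2, nor without pair 3, where its difference was 0.43, and in each of these settings 1 other gene of the list passed, in the lower direction.

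Among 20 Notch modifiers, nuclear effectors and targets, 4 were higher and 1 lower (median 0.05 log2 units). The 4 were Hey1, a target that encodes a repressor, by 1.13 ± 0.27 (6.40 in NPMc+, 5.27 in control), and all 3 Mastermind coactivator genes. Maml3 was higher by 0.84 ± 0.20, Maml1 by 0.83 ± 0.26 and Maml2 by 0.56 ± 0.18, each in 3 of 3 pairs. Heyl, another target, was lower (-0.59 ± 0.19). Rbpj, the DNA-binding partner of cut Notch, differed by 0.37 ± 0.22 and Hes1, a target, by 0.24 ± 0.28, and neither passed. As the mean of its probe sets Rbpj differed by 0.01, so its value rests on the probe set taken. Without pair 2, 3 of the list passed, Hey1, Maml3 and Heyl.

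Of 23 other Adam10 substrates, 0 were higher and 3 lower (median -0.08 log2 units). Fcer2a, the IgE receptor CD23 of B cells, was lower (-0.94 ± 0.20), at 3.29 in NPMc+ and 4.23 in control, beside the B cell markers. What part B cells have in the Fcer2a values was not tested. Met, the receptor of hepatocyte growth factor, was lower (-0.84 ± 0.18), as was Gp6, the collagen receptor of platelets (-0.45 ± 0.17). Fcer2a and Gp6 were dim, at the 43.6th and 38.9th percentile of all gene means, so a filter at the 50th percentile left them out. App and Cd44 differed by -0.09 ± 0.20 and -0.08 ± 0.23 and did not pass. Of the 17 genes past the threshold in the 6 lists, 11 remained without pair 1, 8 without pair 2 and 10 without pair 3. Whichever pair was left out, 6 remained: Tspan8, Adam19, Hey1, Maml3, Fcer2a and Met. Leaving out a pair also leaves fewer degrees of freedom, so a gene can be lost with its difference nearly unchanged. Gp6 was lost each time, at -0.46, -0.46 and -0.45 without pairs 1, 2 and 3.

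**Figure D5:**
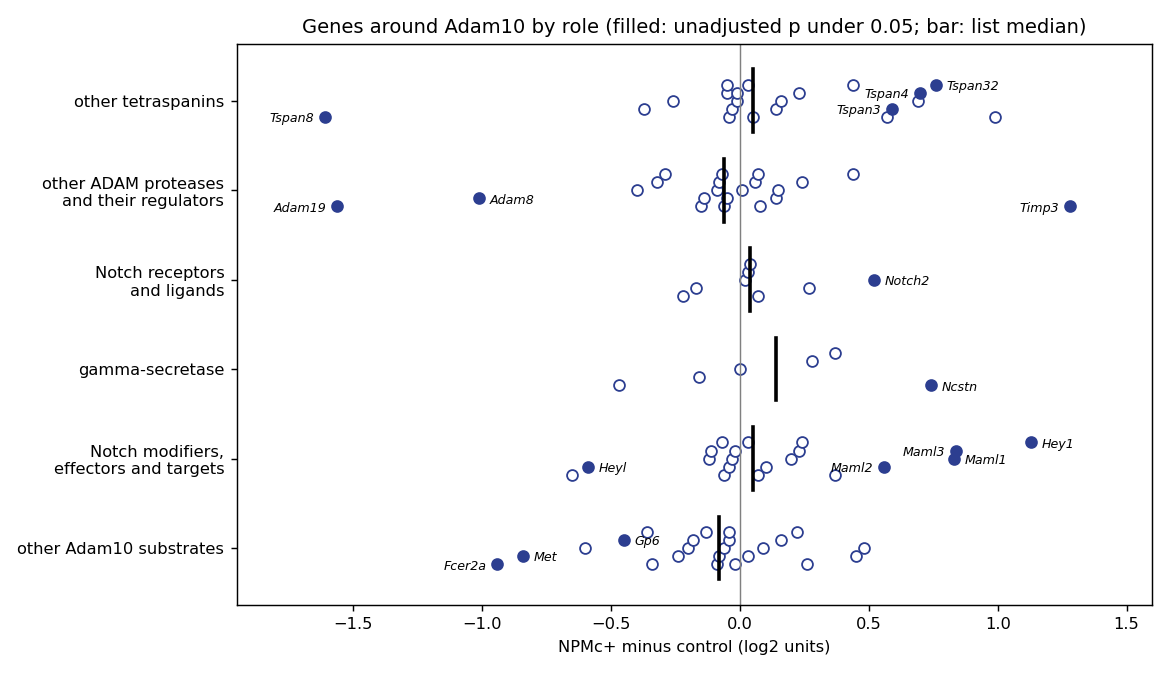
NPMc+ minus control in log2 units (horizontal axis) for the tested genes of 6 lists (vertical axis). Filled points have an unadjusted p under 0.05 in limma and black bars are list medians, between -0.08 and 0.14; vertical offsets within a list only separate points.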

How the data were processed

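The authors deposited log2 expression values of 41345 probe sets, made with RMA per the submitters' processing notes. The version of RMA and the way the replicate number was handled are not given in the sources used. Groups and replicate numbers came from the titles. Under the 5 other pairings at most 0.343% of probe sets had equal pair means, and within the labelled pairs the arrays' deviations correlated at -1. The replicate number had thus been adjusted for, and was kept as a block, with 2 residual degrees of freedom. Of the probe sets, 23521 had 1 gene symbol in the platform annotation. A gene took its brightest probe set, and genes below the 25th percentile of the mean were left out. Tests were two-sided with limma 3.58.1 in R 4.3.3, adjusted by Benjamini-Hochberg over all 16635 genes and checked on simulated data; figures used matplotlib 3.10.9. Members and lists were chosen with earlier results of these data known. The text names the members, up to 4 genes per list and direction by smallest p, fixed pathway genes and the 5 nearest genes; the markers named were picked after their values were seen. P-values measure the spread between these samples, which may be technical, and the number of arrays limits the precision. The alternatives were the block, normalization, filter, variance trend, probe set and each pair left out.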

Additional observations from a re-analysis of the deposited data

How the results depend on the processing

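Quantile normalization left the 7 members' differences within 1 SD of their pairs, except Tspan5 at 0.17 log2 units, and the cause was not tested. The other alternatives could not move a member by 1 SD. Each member had 1 probe set, and leaving out 1 of 3 pairs always shifts a mean by less than 1 SD. These outcomes, fixed in advance, are counted below among the values labelled the same. Of 380 values under alternatives, 320 were labelled the same. For these, tested genes kept direction and side of the threshold, differences and medians stayed within 1 SD of the pairs, and counts within 1.5 times. The size of a tested gene's difference was not weighed. Rbpj, from 0.37 to 0.01 as the mean of its probe sets, and Cd81, from 0.69 to 0.19 without pair 2, were labelled the same. The block, filter and variance trend leave a gene's difference as it is, so its direction could not change there. Of the 77 differences and medians without a test, 6 near 0 changed sign, Tspan10 and 5 list medians, none beyond 0.1 log2 units in size. Without the replicate block, limma called 4138 genes at an unadjusted and 828 at an adjusted p under 0.05, against 1492 and 0 with it, since that fit counts the tied arrays as independent. In the lists it called 9 other tetraspanins, 7 ADAM genes and regulators, 2 Notch receptors and ligands, 2 gamma-secretase genes and 6 substrates. Leaving out a pair gave 0 to 24 genes at an adjusted p under 0.05 (24 without pair 3, 3 without pair 2) and 1155 to 1369 at an unadjusted one. Per list it gave 1 to 6 other tetraspanins, 1 to 2 ADAM genes, 0 to 1 Notch receptors and ligands, 1 to 2 gamma-secretase genes, 3 to 4 Notch effectors and 2 to 3 substrates. For Notch receptors and ligands the count was 0 after quantile normalization, with an intensity trend and above the 50th percentile, where fewer genes were tested. Gamma-secretase had 2 after quantile normalization. Substrates had 5 without the filter, 5 with the trend and 1 above the 50th percentile. Of genes that did not pass, Cd9 turned to -0.20 as the mean of its probe sets and ran from -0.22 to 0.22 when a pair was left out, Hes1 from -0.09 to 0.59, App from -0.25 to 0.01 and Cd44 from -0.21 to 0.19.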
